A study of Mus musculus with 12 samples.

Results

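Kidneys of mice with adenine-induced chronic kidney disease (CKD) that received colchicine were compared with kidneys of control mice, to describe which genes stay different from control under colchicine and which lie at or near the control level. The comparison takes 8 of the 12 libraries of the series, 4 colchicine and 4 control, chosen by their labels. The 4 libraries of untreated CKD stand beside them, because only they show what the disease changed without colchicine. All genes were used, and 17841 of the 40213 in the files passed the filter on low counts.

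All mice were C57BL/6, and RNA was total RNA of kidney. Control mice had normal diet and saline by intraperitoneal injection. CKD mice had a diet with 2% adenine and saline. The colchicine libraries come from adenine-fed mice given colchicine at 0.3 mg/kg per day by the same route, and their labels give 2, 3, 4 and 5% adenine for replicates 1, 2, 3 and 4. The labelled percentage rises by 1 with each replicate number, and whether it records the diet that was fed could not be settled here, which limits every value below that uses it. Replicate 1 is therefore the 1 colchicine library whose adenine label equals that of the CKD group, and in the other 3 the agent and a higher labelled percentage cannot be told apart. The sources used here give no age, sex or duration. They call the libraries biological replicates without naming animals, and the tests weigh differences only against the spread among these libraries, which may be technical.

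Adenine in the diet is oxidised to a compound that crystallises in the tubules, and the crystals injure the tubular epithelium and draw in inflammatory cells, with fibrosis after. The proximal tubule does most of the kidney's reabsorption, lives on fatty acid oxidation, and loses its transporters and enzymes when injured. Colchicine binds tubulin, blocks the growth of microtubules, and is used against crystal-driven inflammation because it limits neutrophil movement and inflammasome activity.

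Most of the disease pattern was present under colchicine. With edgeR's quasi-likelihood test and an adjusted p below 0.05, 6612 genes were higher and 5964 lower in colchicine than in control, which is 37.1% and 33.4% of the genes tested and 70.5% together. A difference of 2-fold or more was found for 3770 higher and 2814 lower genes, and one of 4-fold or more for 1832 and 1135. Across all genes tested the log2 fold change had a median of 0.10. Levels below are TMM-scaled CPM, a gene's count relative to the size of its library, where TMM is a scaling factor that takes most genes as unchanged. Scaled by the upper quartile, 8134 genes were higher and 4849 lower (62.7% of the calls higher, against 52.6%), and the median became 0.30. By library totals alone it became 1.14, with 13762 genes higher and 1953 lower. Directions below are relative to the TMM scale.

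The libraries held 22200909 to 38253100 counts. The 13 mitochondrially encoded messenger RNAs took 40.8 to 45.9% of the counts in control, 16.5 to 17.0% in CKD, and 14.3, 15.8, 18.5 and 21.3% in colchicine replicates 1 to 4. On the first principal component, which held 78.7% of the variance, the control libraries lay between -134.3 and -127.9, the CKD libraries between 55.81 and 62.15, and the colchicine libraries between 64.38 and 79.8. On the second component (6.54%) colchicine replicate 1 stood apart from its group at -22.1, among the CKD libraries, while the other 3 lay between 28.11 and 50.36. Counts that rest on colchicine against CKD are therefore given with and without it.

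Of the genes changed at least 2-fold in CKD against control, 3329 higher and 2739 lower, 5871 of 6068 (96.8%) were also different from control in the same direction under colchicine. None was called in the opposite direction. Over the 3329 genes higher in CKD the median log2 difference from control was 1.95 in CKD and 2.09 with colchicine. Over the 2739 lower genes it was -1.64 and -1.75. Both contrasts share the control libraries, so these values are set side by side as a description only. The remaining 197 genes were not called in colchicine against control, 64 of those higher and 133 of those lower in CKD, and 157 of the 197 had a mean count below 50. Missing the threshold does not show a return, and 101 of the 197 still differed from control by more than 1.5-fold in their estimate.

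A return was therefore read from the interval of the difference. A gene was taken as within 1.5-fold of control when the 90% interval of its log2 fold change lay inside 1.5-fold on both sides, which held for 4682 of the 17841 genes tested. Among the 6068 genes changed 2-fold in CKD it held for 5, namely Rsad2, Wscd2, Bglap3, Gm53222 and LOC118568397. All 5 were lower in CKD, at log2 fold changes of only -1.09 to -1.04 against control, just past the 2-fold limit. A gene neither called against control nor within 1.5-fold by its interval is not settled either way. Leaving out 1 library at a time gave between 1 and 14 such genes, with 14 when colchicine replicate 1 was left out, and 4 of the 5 were among those. There was 1 without control replicate 2, 2 without control replicate 3 or 4 or CKD replicate 3, and 3 without colchicine replicate 2 or 3.

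Moves between the disease and the treated group were tested directly, as colchicine against CKD. In that contrast 1212 genes were higher and 1470 lower (6.79% and 8.24% of the genes tested, 15% together). Among the 6068 genes changed in CKD, 328 (5.41%) had moved toward control and 876 (14.4%) further from it, and for 4864 no move was called. Counts of list genes toward or further from control are to be read beside these 2 shares. Their counts higher or lower than control are to be read beside the 37.1% and 33.4% of all genes tested. Of the 328, 224 had been higher and 104 lower in CKD. Of the 876, 302 had been higher and 574 lower. A move of 2-fold or more was seen for 66 genes toward control and 128 away from it, and 288 of the 328 were still called against control. Both contrasts use the CKD libraries, so the 2 counts are not compared by a test.

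Each of these counts depended on single libraries. Without colchicine replicate 1, 811 genes lay toward control and 1252 further from it, among 6183 changed in CKD, of which 5904 (95.5%) were still different from control. Of the 328 genes, 323 were again toward control without it. The colchicine libraries left in that fit are labelled 3, 4 and 5% adenine, against 2% in CKD. The count toward control fell to 176, 178 and 135 without CKD replicates 1, 2 and 3, and to 177, 182 and 210 without colchicine replicates 2, 3 and 4. The count further from control fell to 415 and 536 without CKD replicates 3 and 4, and to 479 and 569 without colchicine replicates 2 and 3. A further fit added a slope on the labelled adenine percentage within the colchicine group, read at 2%. It left 95 genes toward control and 643 further from it. In every one of these fits more genes lay further from control than toward it.

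**Figure D1:**
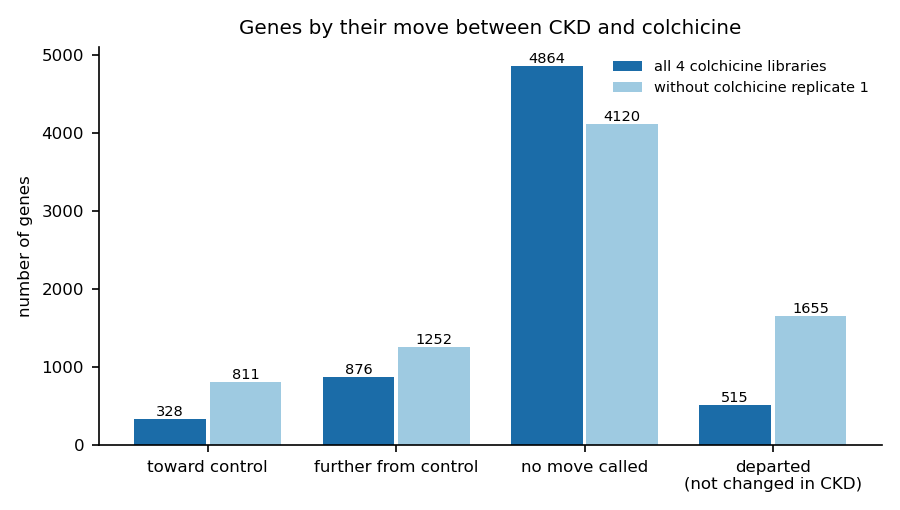
Number of genes (vertical axis) by the called move between CKD and colchicine, with all 4 colchicine libraries (dark bars) and without colchicine replicate 1 (light bars). The first 3 pairs divide the genes changed at least 2-fold in CKD, with 328 toward control and 876 further from it, and the fourth pair counts the 515 genes that departed from control under colchicine while CKD stayed within 1.5-fold of control.

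The 2 proximal tubule lists had the lowest medians against control. All 20 of the 20 listed genes of proximal transport and identity were lower in colchicine than in control, with a median log2 fold change of -3.63, against -3.24 in CKD and a median of 0.10 over all genes with colchicine. All 20 of 20 genes of proximal metabolism were lower as well, with medians of -4.01 and -3.15. None of the 40 had moved toward control, and 9 and 7 of them lay further from it. Those numbers were 10 and 8 without colchicine replicate 1, 6 and 4 without replicate 2, 3 and 4 without replicate 3, and 15 and 15 without replicate 4. Toward control lay 1 metabolism gene without replicate 1 and 1 transport gene by library totals alone. In each list 19 of 20 were lower by library totals alone.

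Slc34a1, the sodium-phosphate cotransporter of the brush border, had 4631, 4907, 4584 and 4706 CPM in the 4 control libraries. It had 271, 258, 346 and 297 CPM in CKD, and 176, 189, 205 and 335 CPM with colchicine. No colchicine library came near the control range, and the log2 fold change against control was -4.38 ± 0.19 (SE, n = 4 per group; edgeR adjusted p = 4.23e-11). Against CKD the difference of -0.37 ± 0.17 did not pass the test (edgeR adjusted p = 0.136). It did without colchicine replicate 4 (-0.63, edgeR adjusted p = 0.00206) and under the slope on the labelled adenine percentage (-0.85, edgeR adjusted p = 0.00301).

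Slco1a1, an organic anion transporter, had the lowest fold change against control among the genes named. Its control libraries lay between 331 and 556 CPM and its colchicine libraries between 0.0348 and 0.489 CPM, a log2 fold change of -11.24 ± 0.35 (edgeR adjusted p = 7.56e-12). Slc22a7, another organic anion carrier, lay at 132 to 207 CPM in control and at 0.0806 to 0.19 CPM with colchicine (-10.44 ± 0.23, edgeR adjusted p = 2.26e-13). The other lowest genes were Slc22a30 (-9.67), Pzp (-9.42), Slc22a28 (-9.35), Slc7a13 (-9.18) and Cyp2d12 (-9.04) on the log2 scale. Smcp, known from sperm mitochondria, had 1 count with colchicine and was 1220-fold lower than in control (95% exact binomial interval 218 to 48200, counting error only). Slc22a30, Slc22a28 and Cyp2d12 have near copies in the genome, so counting could split reads among relatives. Of the transporters, Slc7a13, which carries aspartate, glutamate and cystine, also lay further from control than in CKD (-1.20 ± 0.23, edgeR adjusted p = 0.00638), with 1.49 to 1.93 CPM with colchicine against 2.43 to 6.01 CPM in CKD and 857 to 1046 CPM in control. With a slope on the labelled adenine percentage, read at 2%, that difference was -1.10 (edgeR adjusted p = 0.103).

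Ass1, which makes argininosuccinate on the way to arginine, had 2978, 3140, 2944 and 3162 CPM in control, 163, 151, 201 and 178 CPM in CKD, and 106, 94.2, 104 and 167 CPM with colchicine. The colchicine values overlapped the CKD range only through replicate 4. The difference was -4.70 ± 0.17 from control (edgeR adjusted p = 6.13e-12) and -0.56 ± 0.15 from CKD (edgeR adjusted p = 0.0247). The second call was lost without CKD replicate 3 or 4 or colchicine replicate 2 or 3, at -0.48, -0.55, -0.47 and -0.50. Dao, the oxidase of D-amino acids, fell against control by 3.14 on the log2 scale and did not pass the test against CKD (-0.20 ± 0.11, edgeR adjusted p = 0.22). Dao did pass without colchicine replicate 4 (-0.33, edgeR adjusted p = 0.0336) and under the slope on the labelled adenine percentage (-0.44, edgeR adjusted p = 0.0412).

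The transcription factor Hnf4a, which holds proximal tubule identity, was at -2.88 against control with colchicine and at -1.98 in CKD, and was lower in colchicine than in CKD (-0.90). Cubn, an endocytic receptor, Slc3a1, a subunit of the cystine carrier, and Slc5a12, a lactate carrier, were likewise lower than in CKD, by -1.11, -1.02 and -0.91. The sulfate carrier Slc13a1 was at 0.05 in CKD and at -1.12 with colchicine. Among the enzymes, the gluconeogenic genes G6pc and Fbp1 lay at -4.23 and -4.08 against control and were lower than in CKD by -1.58 and -0.94 (all values log2 fold changes).

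Fatty acid oxidation and oxidative phosphorylation stayed low too. Of the 20 genes of fatty acid oxidation 19 were lower than in control and 0 higher, with a median log2 fold change of -2.09 against -1.60 in CKD. Of the 20 nuclear genes of oxidative phosphorylation 20 were lower (median -1.81 against -1.57). Toward control lay 0 genes of either list. Further from it lay 10 of the 15 and 7 of the 20 changed at least 2-fold in CKD, against 14.4% of all such genes. By library totals alone 17 and 20 genes remained lower, and 5 and 0 lay further from control. Leaving out colchicine replicate 4 put 12 of the oxidative phosphorylation genes further from control, and leaving out replicate 1 put 1 toward it. Acadm, the medium-chain dehydrogenase, lay at 1509 to 1886 CPM in control, 154 to 182 CPM in CKD and 99.1 to 127 CPM with colchicine, so the treated and untreated disease groups did not overlap (-0.57 ± 0.09 against CKD, edgeR adjusted p = 0.00278). Ehhadh, the peroxisomal bifunctional enzyme, was lower than in CKD by -1.18. Ppara, the nuclear receptor that drives these genes, was at -0.84 in CKD and -2.07 with colchicine. Sdhb, a subunit of succinate dehydrogenase, was at -2.09 ± 0.08 against control and did not pass the test against CKD (-0.21 ± 0.08, edgeR adjusted p = 0.0848). It was called below CKD with DESeq2 (-0.23, DESeq2 adjusted p = 0.0209) and without colchicine replicate 4 (-0.28, edgeR adjusted p = 0.0312). The slope on the labelled adenine percentage gave that call too (-0.39, edgeR adjusted p = 0.0169).

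All 13 mitochondrially encoded messenger RNAs were lower than in control, with a median of -2.38 with colchicine and -2.40 in CKD. ND4 lay at 11656 to 18627 CPM with colchicine, 14041 to 14631 CPM in CKD and 80717 to 100400 CPM in control (-2.62 ± 0.15, edgeR adjusted p = 4.3e-10). ND6, the 1 messenger on the other strand, lay toward control (-1.71 against -2.48 in CKD). There were 4 such genes without colchicine replicate 1, 2 by library totals alone, and 0 without colchicine replicate 2, 3 or 4 or under the slope on the labelled adenine percentage. Further from control lay 3 without replicate 4 and 2 under the slope, against 0 with all libraries.

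Further along the nephron, 13 of 16 genes of the loop of Henle or the distal convoluted tubule were lower than in control and 2 were higher (Cldn19 and Trpm6), with a median of -1.67 against -1.35 in CKD. In the collecting duct list 13 of 16 were lower and 1, Atp6v0d2, was higher (medians -1.46 and -1.07). None of the 32 lay toward control, and 1 collecting duct gene did without colchicine replicate 1. The collecting duct split was 5 higher and 8 lower by library totals alone. Egf, made by the distal convoluted tubule, had 613 to 789 CPM in control and 15.1, 5.04, 7.59 and 11.6 CPM with colchicine (-6.14 ± 0.33, edgeR adjusted p = 4.48e-09). Against CKD, with 13.4 to 21.9 CPM, it did not pass the test (-0.86 ± 0.28, edgeR adjusted p = 0.0575), but did without colchicine replicate 1 (-1.16, edgeR adjusted p = 0.00895). Egf was also called below CKD with DESeq2 (-0.88, DESeq2 adjusted p = 0.0241) and limma-voom (-0.99, limma-voom adjusted p = 0.0252).

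The water channels Aqp2 and Aqp3 of the collecting duct lay further from control, and Aqp4 did not (-2.21 with colchicine and -2.51 in CKD, 0.30 against CKD, edgeR adjusted p = 0.634). Aqp2, the vasopressin-regulated channel, had 277, 178, 220 and 210 CPM in control, 36.1, 31.5, 30.7 and 45.5 CPM in CKD, and 15.6, 17.8, 13.8 and 15.8 CPM with colchicine. Each colchicine library was below each CKD library (-1.19 ± 0.15, edgeR adjusted p = 4.37e-04), and against control the difference was -3.81 ± 0.16. Aqp3, the basolateral channel, had 3.91, 3.88, 3.67 and 5.64 CPM with colchicine against 11.4 to 13.2 CPM in CKD and 73 to 96.9 CPM in control (-1.54 ± 0.13 against CKD, edgeR adjusted p = 2.65e-05). Of the loop genes, the cotransporter Slc12a1 (-1.02) and the potassium channel Kcnj1 (-0.73) were lower than in CKD, as were Ppp1r1a (-0.53), a phosphatase inhibitor, and the claudin Cldn10 (-0.30). The Cldn10 call was lost in 13 of the other fits, with values from -0.32 to -0.23.

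Kl, the FGF23 co-receptor klotho, had 600 to 745 CPM in control, 48.1 to 62.1 CPM in CKD, and 44.7, 17, 23.9 and 49.1 CPM with colchicine (-4.27 ± 0.31, edgeR adjusted p = 8.32e-08). It did not pass the test against CKD (-0.63 ± 0.27, edgeR adjusted p = 0.134). Of the 15 mineral and endocrine genes tested, 11 were lower and 2, Fgfr1 and Trpv5, higher than in control, and by library totals alone the split was 5 higher and 7 lower. Ace, Agtr1a and Vdr were among those further from control than in CKD, by -0.55, -0.57 and -0.46. The Vdr call was lost without CKD replicate 2 or 3 or colchicine replicate 2 (-0.45 to -0.37). Agt, the angiotensin precursor, was at 0.69 in CKD and at -0.35 with colchicine.

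**Figure D2:**
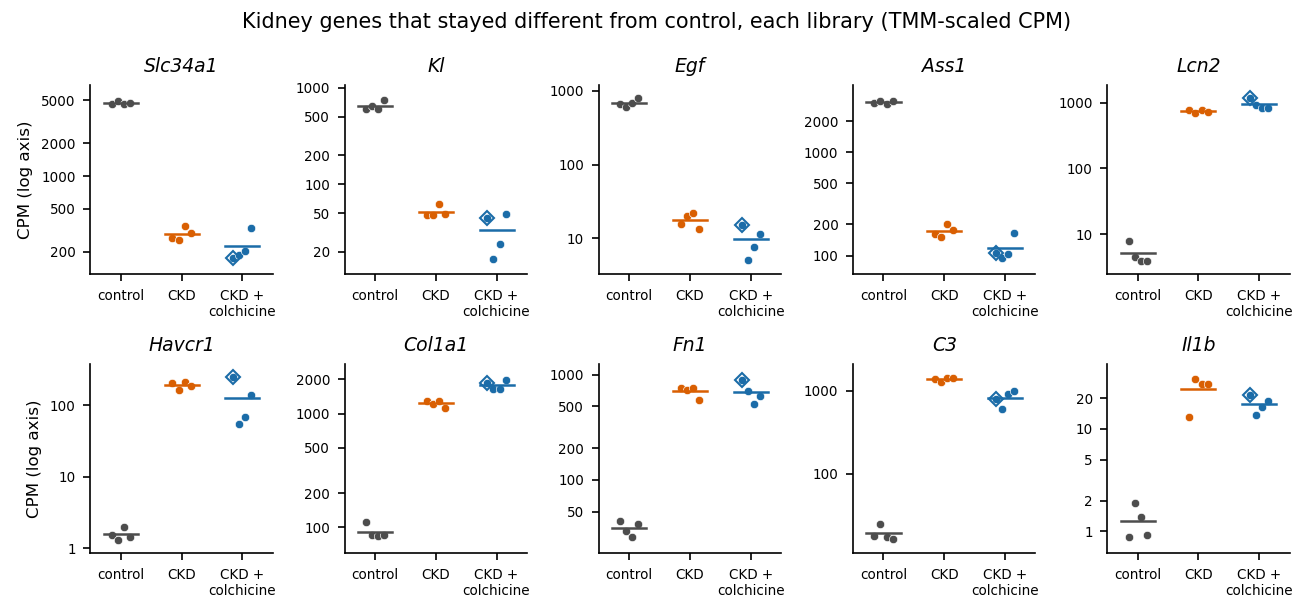
TMM-scaled CPM (log axis) of 10 genes in each of the 4 control, 4 CKD and 4 colchicine libraries, with lines at the group means and an open diamond around colchicine replicate 1. In all 10 panels the colchicine libraries lie apart from the control libraries, as for Slc34a1 at 176 to 335 CPM against 4584 to 4907 CPM.

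Injury genes stayed high. All 20 of the 20 genes of tubular injury and failed repair were higher than in control, with a median of 3.54 against 3.48 in CKD, and this held on each scaling run. Lcn2, the secreted injury marker NGAL, had 7.93, 4.53, 3.9 and 3.94 CPM in control, 775, 699, 765 and 713 CPM in CKD, and 1189, 922, 840 and 832 CPM with colchicine. It was 186-fold higher than in control (log2 7.54 ± 0.22, edgeR adjusted p = 1.45e-12), and the difference of 0.36 ± 0.16 from CKD did not pass the test (edgeR adjusted p = 0.143). That difference was called with limma-voom (0.34, limma-voom adjusted p = 0.0482) and without control replicate 1 (0.36, edgeR adjusted p = 0.043). Cp, ceruloplasmin, and Dcdc2a, a protein of the primary cilium, were at 3.75 ± 0.09 and 3.26 ± 0.08 against control, and neither passed the test against CKD (edgeR adjusted p = 0.089 and 0.0995). Leaving out colchicine replicate 1 put Cp toward control (-0.26 against CKD, edgeR adjusted p = 0.0254). Cp was also called against CKD with DESeq2 (-0.24, DESeq2 adjusted p = 0.0186), and Dcdc2a by upper-quartile scaling (0.24, edgeR adjusted p = 0.0404).

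Havcr1, the proximal injury receptor KIM-1, had 1.32 to 1.99 CPM in control, 162 to 207 CPM in CKD, and 244, 53.5, 67.8 and 139 CPM with colchicine. Colchicine replicate 1 was above the CKD range and the other 3 below it. The difference from CKD was -0.58 ± 0.39 (edgeR adjusted p = 0.327) with all 4 libraries and -1.13 ± 0.29 (edgeR adjusted p = 0.0166) without replicate 1, and against control it was 6.34 ± 0.57 with all 4. Spp1, osteopontin, and Vcam1, an adhesion molecule of failed-repair tubules, were toward control, at 4.04 against 4.62 in CKD and at 4.13 against 4.54. Spp1 lay at 6845 to 12460 CPM with colchicine, 14300 to 16982 CPM in CKD and 569 to 657 CPM in control, so the 3 groups did not overlap. Both calls were lost without CKD replicate 3 (Spp1 -0.53, Vcam1 -0.38), that of Spp1 also without colchicine replicate 3 (-0.55) and that of Vcam1 without CKD replicate 4 (-0.38). The Spp1 call was lost under the slope on the labelled adenine percentage as well (-0.58, edgeR adjusted p = 0.128). Further from control lay the keratins Krt8 and Krt18, Anxa2, Sox4 and the protease inhibitor Timp1. Leaving out colchicine replicate 1, 6 genes of the list lay toward control and 5 further.

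The highest fold changes against control were those of genes nearly silent in control kidney. Sprr2f, a cornified envelope protein, had 0 counts in the 4 control libraries and 25.9, 8.66, 9.77 and 15 CPM with colchicine. Against a floor of 3 counts over the control group it was at least 325-fold higher. Il36a, a cytokine of the interleukin 1 family, was likewise at least 139-fold higher, Trem1, a myeloid receptor, at least 90.3-fold and Spaca7, known from sperm, at least 76.3-fold. Mmp7, a matrix protease of injured tubules, had 0 to 0.175 CPM in control and 161, 106, 91.3 and 66 CPM with colchicine (10.43 ± 0.48, edgeR adjusted p = 7.63e-10). Clca3b and Krt17 each had 1 count in control. Clca3b was 609-fold higher (95% exact binomial interval 109 to 24100, counting error only) and Krt17 503-fold (90.1 to 19900).

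Arg1, arginase, was the most uneven of these across the colchicine libraries. It had 193, 64.6, 30 and 33.8 CPM with colchicine, 18.5 to 27.3 CPM in CKD and 0 to 0.175 CPM in control. The difference from CKD did not pass with all libraries (1.74 ± 0.55, edgeR adjusted p = 0.0598) and did without replicate 1 (0.83, edgeR adjusted p = 0.0395). Krt17 was higher than in CKD as well (1.09 ± 0.25, edgeR adjusted p = 0.0119).

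Matrix genes were higher than in control in 20 of 20 cases, with a median of 2.97 against 2.67 in CKD, and 10 of the 20 lay further from control than in CKD with 0 toward it. All 20 were changed at least 2-fold in CKD, and of all such genes 14.4% lay further from control. The 10 were Acta2, Col1a1, Col1a2, Col5a1, Col6a1, Pdgfrb, Sparc, Tagln, Tnc and Vim, which are collagens, other matrix proteins and genes of contractile fibroblasts. Col1a1, the main fibrillar collagen, had 113, 85.9, 83.1 and 86.1 CPM in control, 1295, 1224, 1298 and 1125 CPM in CKD, and 1845, 1649, 1629 and 1958 CPM with colchicine. Each colchicine library was above each CKD library (0.52 ± 0.10, edgeR adjusted p = 0.00643). Fn1, fibronectin, was 19.7-fold above control and did not pass the test against CKD (-0.02 ± 0.15, edgeR adjusted p = 0.934). The count of 10 further from control fell to 4 without colchicine replicate 2, to 5 without replicate 4 and to 5 under the slope on the labelled adenine percentage. The Acta2 call against CKD (0.39) was lost without CKD replicate 1, 2 or 4 or colchicine replicate 2 or 4, at 0.30 to 0.40. It was also lost under the slope on the labelled adenine percentage (0.23, edgeR adjusted p = 0.407).

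Among 18 genes of TGF-beta signalling, the pathway that drives matrix production, 14 were higher and 1, Bmp7, was lower than in control (medians 1.10 with colchicine and 1.13 in CKD). Tgfb1 had 83.6 to 100.1 CPM with colchicine, 85.9 to 93.2 CPM in CKD and 21.5 to 24.2 CPM in control (2.03 ± 0.07 against control, edgeR adjusted p = 3.75e-12). Its 90% interval against CKD was -0.08 to 0.16. Of the 11 listed genes changed at least 2-fold in CKD, Tgfb2 and Tgfb3 lay further from control than in CKD, by 0.31 and 0.39. Of all genes so changed 14.4% lay further. That count of 2 genes was 0 without colchicine replicate 2, and 1 without replicate 3, with RLE scaling or by library totals alone. Without replicate 1 another 3 genes of the list lay toward control, against 0 with all libraries. Bmp7, which opposes this pathway in the tubule, was at -1.87 with colchicine and -1.86 in CKD.

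Inflammatory genes stayed high, and several lay closer to control than in CKD. All 17 macrophage and monocyte genes were higher than in control (median 3.75 against 3.89), and 6 lay toward control with 0 further from it. Over all genes changed at least 2-fold in CKD, 5.41% lay toward control and 14.4% further from it. The 6 were Adgre1 (-0.67), Ccr2 (-0.64), Mrc1 (-0.58), Lyz2 (-0.55), Csf1r (-0.51) and Cd14 (-0.37), as log2 differences from CKD. In bulk tissue fewer cells of a type and less RNA per cell cannot be told apart. The summed level of the 17 genes was 119 to 149 CPM in control, 2317 to 2378 CPM in CKD and 1645 to 2309 CPM with colchicine, so no colchicine library reached the CKD range. C1qb, the complement subunit made by tissue macrophages, was at 3.69 ± 0.11 against control and did not pass the test against CKD (edgeR adjusted p = 0.396). The Cd14 call was lost without CKD replicate 3 or 4 or colchicine replicate 2 or 3 (-0.37 to -0.31). The count of 6 was 8 without colchicine replicate 1, 2 without replicate 3, 3 without replicate 4, and 0 under the slope on the labelled adenine percentage.

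All 10 neutrophil genes tested were higher than in control (median 4.70 against 5.07), with Csf3r (-0.60) toward control and Retnlg (1.37) further from it. The Csf3r call was lost without CKD replicate 1, 2 or 3 or colchicine replicate 2, 3 or 4 (-0.63 to -0.47). Under the slope on the labelled adenine percentage Csf3r was at -0.23 against CKD, not called (edgeR adjusted p = 0.535). S100a8, a calcium-binding protein that neutrophils store, had 17.5, 10.4, 14.2 and 8.87 CPM with colchicine, 15.3 to 21.2 CPM in CKD and 0.342 to 0.754 CPM in control. It did not pass the test against CKD (-0.53 ± 0.19, edgeR adjusted p = 0.0678), and did without colchicine replicate 1 (-0.72, edgeR adjusted p = 0.0036). DESeq2 (-0.56, DESeq2 adjusted p = 0.0398) and limma-voom (-0.55, limma-voom adjusted p = 0.0414) called S100a8 below CKD too. The summed level of the list overlapped between the 2 disease groups, with 59.9 to 148 CPM with colchicine and 107 to 141 CPM in CKD. Without colchicine replicate 1, 4 of the 10 lay toward control and 0 further from it. These counts were 0 and 0 without replicate 2, and 0 and 1 without replicate 3 or 4. Under the slope on the labelled adenine percentage they were 0 and 3.

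Of 13 lymphocyte genes tested 7 were higher and 1, Cd79a, was lower than in control, with 3 toward control. Il7r, the interleukin 7 receptor, had 0.117 to 0.464 CPM in control, 15.3 to 22.4 CPM in CKD, and 11.3, 10, 9.73 and 8.8 CPM with colchicine. Each colchicine library lay between the other 2 groups (-0.89 ± 0.14 against CKD, edgeR adjusted p = 0.00247). Cd3g and Cd4 were the other 2 (-0.81 and -0.75). The count of 3 was 2, of 14 genes tested, without colchicine replicate 2, 3 or 4. It was 1 under the slope on the labelled adenine percentage. By library totals alone 11 genes were higher than in control and 0 lower. The summed level of the list was 35.4 to 49.5 CPM with colchicine, 51.4 to 73.3 CPM in CKD and 12.5 to 18.7 CPM in control.

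The inflammasome, the complex that matures interleukin 1 and a known point of action of colchicine, stayed high in its genes. Of 16 genes 12 were higher and 1, Nlrc4, was lower than in control, with medians of 2.16 and 2.25. Il1b had 21.3, 13.7, 16.5 and 18.9 CPM with colchicine, 13, 30.4, 27.3 and 27.5 CPM in CKD and 0.874 to 1.88 CPM in control. It was 13.7-fold above control (3.78 ± 0.32, edgeR adjusted p = 1.25e-07), and its difference from CKD did not pass the test (-0.49 ± 0.23, edgeR adjusted p = 0.164). Without CKD replicate 1, the lowest CKD library, Il1b was called below CKD (-0.70, edgeR adjusted p = 0.0226). Nlrp3, the sensor, did not pass the test against CKD (-0.12 ± 0.20, edgeR adjusted p = 0.683), with 4.07 to 6.74 CPM with colchicine and 4.5 to 6.41 CPM in CKD. Il1rn, the secreted antagonist of interleukin 1, was the 1 gene of the list toward control, with 45.3, 38.7, 48.7 and 39.4 CPM with colchicine against 53.8 to 73.3 CPM in CKD (-0.54 ± 0.11, edgeR adjusted p = 0.00676). It was still 145-fold above control. Casp4, which cleaves gasdermin on sensing bacterial lipid, was the 1 gene further from control (0.37). Both calls against CKD were lost under the slope on the labelled adenine percentage (Il1rn -0.50, edgeR adjusted p = 0.0651, and Casp4 0.38, edgeR adjusted p = 0.0607).

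Of 22 cytokines and chemokines 21 were higher than in control and 1, Cxcl12, was lower. Ccl3 (-0.87), Cxcl2 (-0.88), Il34 (-0.34), Tnfrsf1b (-0.31) and Cxcl16 (-0.27) lay toward control, and Csf2 (1.19) further from it. Ccl2, the monocyte chemokine, had 25.7, 17.9, 10.8 and 18.6 CPM with colchicine and 15.6 to 18.8 CPM in CKD, and did not pass the test between them (0.08 ± 0.19, edgeR adjusted p = 0.793). The 5 and 1 became 7 and 1 without colchicine replicate 1, 2 and 0 without replicate 2 or replicate 4, and 4 and 2 without replicate 3. They were 2 and 2 by upper-quartile scaling, 3 and 1 by library totals alone, and 2 and 1 under the slope on the labelled adenine percentage. The Tnfrsf1b call was lost in 9 of the other fits, with values from -0.34 to -0.25.

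Complement and acute phase genes stayed high, with several toward control. Of 13 complement genes 10 were higher and 2, Cd55 and Cfb, were lower than in control, and C3 and Cfi were among those toward control. C3, the hub of the cascade, had 18, 25.1, 17.2 and 16.5 CPM in control, 1394, 1288, 1423 and 1416 CPM in CKD, and 789, 601, 909 and 999.5 CPM with colchicine. Every colchicine library was below every CKD library (-0.74 ± 0.15, edgeR adjusted p = 0.00643), and the group stayed 42.9-fold above control. Of 11 acute phase genes tested 10 were higher than in control. The fibrinogen chains Fga (-1.48), Fgb (-1.35) and Fgg (-1.40) and the serum amyloid Saa1 (-1.61) lay toward control, while its relative Saa3 (1.77) lay further from it. The 4 toward control were 2 without colchicine replicate 2 or 3. Lbp and Socs3 were at 3.50 and 5.29 against control and did not pass the test against CKD (edgeR adjusted p = 0.883 and 0.38).

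**Figure D3:**
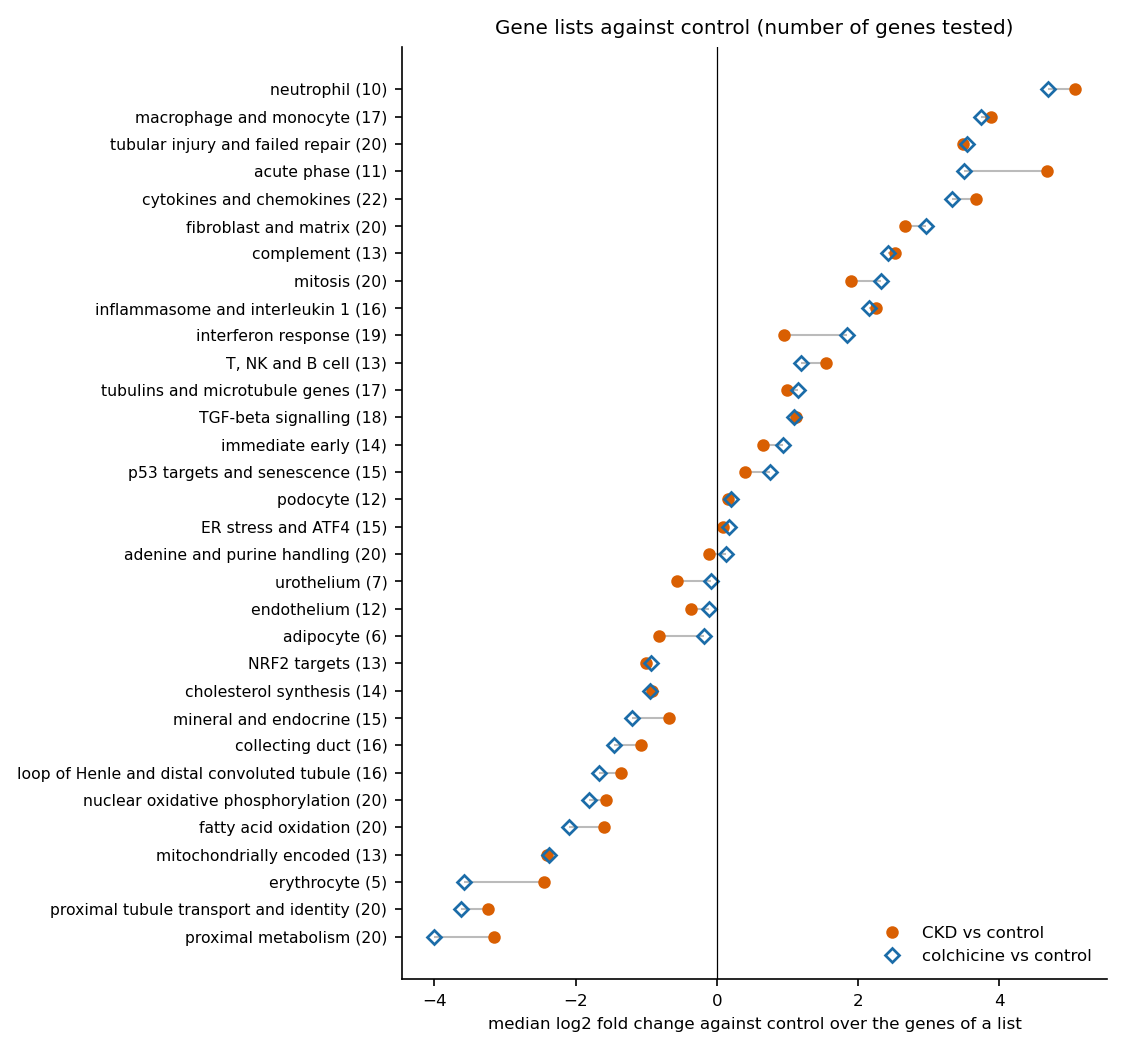
Median log2 fold change against control over the tested genes of each list with at least 5 tested (number in brackets), for CKD (filled circles) and colchicine (open diamonds), which share the control libraries. The interferon list has medians of 0.96 in CKD and 1.85 with colchicine, and the acute phase list 4.68 and 3.50.

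Interferon response genes lay further from control. Interferon binds its receptor, and the signal reaches genes through a complex of transcription factors that binds a repeated element in their promoters. Of 19 listed genes 18 were higher than in control and 0 lower, with a median of 1.85 against 0.96 in CKD and a median of 0.10 over all genes. In colchicine against CKD 14 of the 19 were higher and 0 lower, where 6.79% of all genes tested were higher. Of the 9 changed at least 2-fold in CKD, 7 lay further from control, namely Irf7, Isg15, Mx1, Oas1a, Oasl2, Rtp4 and Zbp1, and 1, Rsad2, lay toward it. Without colchicine replicate 1 the split against control was 17 higher and 1 lower. The count of 7 was the same without each colchicine library in turn and under the slope on the labelled adenine percentage, and it was 10 and 12 by upper-quartile scaling and by library totals alone.

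The promoters of 3 of these genes are printed as examples of listed genes that hold a common form of the element. They are the 250 bases before the annotated start, from RefSeq on GRCm38.p6, all on the minus strand, and capitals mark the letters GAAANNGAAA or, on the other strand, TTTCNNTTTC, overlapping matches joined.
Isg15, chr4:156200819-156201068: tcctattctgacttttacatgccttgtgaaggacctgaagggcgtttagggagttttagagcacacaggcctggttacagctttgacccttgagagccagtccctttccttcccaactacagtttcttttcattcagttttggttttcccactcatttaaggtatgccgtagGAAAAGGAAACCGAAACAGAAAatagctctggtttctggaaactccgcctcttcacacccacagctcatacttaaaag
Oas1a, chr5:120907526-120907775: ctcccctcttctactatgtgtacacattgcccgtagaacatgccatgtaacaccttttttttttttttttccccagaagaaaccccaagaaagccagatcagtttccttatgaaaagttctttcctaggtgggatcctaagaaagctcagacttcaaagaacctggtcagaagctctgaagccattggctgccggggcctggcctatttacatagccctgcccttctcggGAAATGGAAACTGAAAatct
Rsad2, chr12:26456453-26456702: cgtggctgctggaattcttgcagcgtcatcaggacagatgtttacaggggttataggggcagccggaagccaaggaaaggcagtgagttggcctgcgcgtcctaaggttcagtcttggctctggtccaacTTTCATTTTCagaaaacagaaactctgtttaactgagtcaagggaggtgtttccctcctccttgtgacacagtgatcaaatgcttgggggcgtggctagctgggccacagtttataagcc
Of the 13 listed genes with a promoter in the RefSeq table, 8 held the motif on either strand within 250 bases before to 50 after the start. The same held for 520 of 13421 genes tested (3.87%). A match describes the letters and does not show that a factor binds there.

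Isg15, a ubiquitin-like protein, had 5.65, 4.18, 3.7 and 3.19 CPM in control, 8.62, 8.48, 7.86 and 9.93 CPM in CKD, and 31.8, 24, 19.4 and 27.3 CPM with colchicine. The 3 groups did not overlap (1.55 ± 0.16 against CKD, edgeR adjusted p = 1.02e-04), and colchicine was 6.11-fold above control. Oas1a, which makes the activator of RNase L, had 26.5, 17.7, 16.4 and 19.2 CPM with colchicine, 10.6 to 12.7 CPM in CKD and 2.2 to 3.31 CPM in control (0.79 ± 0.14 against CKD, edgeR adjusted p = 0.0046). Bst2, tetherin, had 30.7 to 39.3 CPM with colchicine, 13.9 to 17 CPM in CKD and 6.5 to 9.62 CPM in control (1.13 ± 0.11 against CKD, edgeR adjusted p = 8.45e-05).

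Rsad2, viperin, differed from its list, being lower in CKD than in control. It had 46.5, 42.1, 34.9 and 47.1 CPM in control, 19.7, 20.2, 19.8 and 20.2 CPM in CKD, and 60.8, 27.4, 28.3 and 38.5 CPM with colchicine. Colchicine replicate 1 was above the control range and replicates 2 and 3 below it. The difference from control was -0.14 ± 0.21 (edgeR adjusted p = 0.557), with a 90% interval of -0.51 to 0.23, and by library totals alone it turned to 0.89. Without replicate 1 it was -0.45 ± 0.12 (edgeR adjusted p = 0.00297), so the return of Rsad2 rested on that library, while it stayed above CKD (0.64).

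Wscd2, which encodes a sulfotransferase-like protein, had 7.34, 6.16, 5.82 and 5.97 CPM in control, 3.97, 2.42, 2.08 and 3.45 CPM in CKD, and 4.21, 6.52, 7.92 and 4.38 CPM with colchicine. Its difference from control was -0.13 ± 0.23 (90% interval -0.53 to 0.27), and 0.92 by library totals alone. Without colchicine replicate 1 it was -0.00 and still within 1.5-fold. Against CKD it was 0.96 ± 0.23 (edgeR adjusted p = 0.0153), a call lost without CKD replicate 3 (0.81) or colchicine replicate 3 (0.76). The slope on the labelled adenine percentage also ended that call (0.86, edgeR adjusted p = 0.149).

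Aprt, the enzyme that salvages adenine itself, changed less than 2-fold in CKD and was named as part of a panel reported whatever its result. It had 41.9, 38.2, 39.2 and 34.4 CPM in control, 28.6, 28.3, 29.9 and 27.7 CPM in CKD, and 32.3, 44, 37.6 and 42.3 CPM with colchicine. Every colchicine library was above every CKD library (0.45 ± 0.09, edgeR adjusted p = 0.00806), and against control the difference was 0.02 ± 0.09 with a 90% interval of -0.14 to 0.19. Aprt was above control by 1.06 by library totals alone. Its call against CKD was lost under the slope on the labelled adenine percentage (0.31, edgeR adjusted p = 0.153). Xdh, xanthine oxidoreductase, which oxidises adenine to the crystal-forming product, stayed 1.63 ± 0.10 above control, with a 90% interval against CKD of -0.18 to 0.15. Entpd1, which breaks down extracellular ATP, lay toward control (-0.39, lost without colchicine replicate 2, 3 or 4), and Adk, adenosine kinase, and Abcg2, a urate exporter, further from it (-0.55 and -0.81). Over 20 genes of adenine and purine handling 8 were higher and 7 lower than in control. These counts are near the 37.1% and 33.4% of all genes tested. By library totals alone the split of the list was 15 and 3.

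Among genes higher in CKD with a mean count of 50 or more, the largest moves toward control were those of Ugt1a10, Klrb1b, Gc, Flt3, Cxcl13 and Itgae. Ugt1a10, a glucuronosyltransferase, had 1.33 to 1.85 CPM in control, 19.3 to 25.6 CPM in CKD, and 6.14, 2.19, 1.249 and 3.72 CPM with colchicine. It moved furthest of these (-2.71 ± 0.35 against CKD, edgeR adjusted p = 0.00119). Its call against control (1.08, edgeR adjusted p = 0.0398) was lost without any 1 control library (1.01 to 1.16) and without colchicine replicate 1 (0.56) or 4 (0.98). It shares exons with its neighbours in the Ugt1a cluster, so its count is uncertain.

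Gc, the vitamin D binding protein, had 17.3, 19.5, 19.3 and 21 CPM in control, 171, 148, 178 and 164 CPM in CKD, and 42.9, 39.7, 47.3 and 76.5 CPM with colchicine. The 3 groups did not overlap (-1.68 ± 0.17 against CKD, edgeR adjusted p = 1e-04), and Gc stayed 2.67-fold above control. Cxcl13, the B cell chemokine, had 1.46 to 2.09 CPM with colchicine against 4.17 to 6.78 CPM in CKD and 0.479 to 0.696 CPM in control (-1.65 ± 0.20, edgeR adjusted p = 2.9e-04). Flt3, the receptor of dendritic cell growth, had 0.777 to 1.51 CPM against 3.3 to 4.52 CPM in CKD and 0.407 to 0.812 CPM in control (-1.67 ± 0.23, edgeR adjusted p = 9.79e-04), and Klrb1b, a natural killer cell receptor of a family of near copies, moved by -1.76 ± 0.25. The lowest colchicine library of Flt3 lay within the control range, and those of Cxcl13 lay above it.

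Itgae, the integrin of epithelial T cells and dendritic cells, reached the control range. It had 0.7, 1.07, 1.03 and 1.33 CPM in control, 3.38, 4.31, 3.72 and 2.31 CPM in CKD, and 1.47, 0.942, 1.11 and 1.36 CPM with colchicine. Against CKD the difference was -1.49 ± 0.24 (edgeR adjusted p = 0.0023). Against control it was 0.23 ± 0.27 (edgeR adjusted p = 0.455), with a 90% interval of -0.24 to 0.70 that does not lie within 1.5-fold, and by library totals alone it was called above control at 1.254.

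Among genes lower in CKD, those with the largest moves toward control were Lars2, C1qtnf3, Itga2b, Lypd2, Wscd2 and Rsad2. Itga2b, the platelet integrin, had 3.73 to 5.14 CPM in control, 0.876 to 1.28 CPM in CKD and 1.67 to 2.43 CPM with colchicine, without overlap among the 3 groups (1.05 ± 0.20 against CKD, edgeR adjusted p = 0.00616). That call was lost under the slope on the labelled adenine percentage (0.79, edgeR adjusted p = 0.102). Lypd2 moved by 1.02 and the secreted protein C1qtnf3 by 1.18, C1qtnf3 with 41.3 CPM in colchicine replicate 1 against 11.1 to 18 CPM in the other 3. Without replicate 1 its move was 0.66. It stayed at -2.79 against control. Leaving out any 1 CKD library, control replicate 2, 3 or 4, or colchicine replicate 2 or 4 ended its call against CKD (1.11 to 1.28), and for Lypd2 that was so without CKD replicate 3 (0.87) or colchicine replicate 2 (0.99) or 3 (0.87).

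Lars2, the mitochondrial leucyl-tRNA synthetase, had 822, 583, 506 and 424 CPM in control, 97.5, 151, 104 and 192 CPM in CKD, and 182, 265, 332 and 453 CPM with colchicine. Over the colchicine libraries its order was that of the mitochondrial share, 14.3, 15.8, 18.5 and 21.3%. It was also that of the labelled adenine, 2, 3, 4 and 5%, so these orders cannot be told apart. The part of the mitochondrial share in the result was not tested. Its move of 1.18 ± 0.31 (edgeR adjusted p = 0.0299) was lost without CKD replicate 1 (1.04), 2 (1.23) or 3 (1.07) or colchicine replicate 2 (1.24), 3 (1.14) or 4 (0.92). The slope on the labelled adenine percentage ended the call too (0.46, edgeR adjusted p = 0.541). Against control Lars2 was at -0.92, not called without control replicate 1 (-0.72) or colchicine replicate 1 (-0.74) or 2 (-0.86), and at 0.11 by library totals alone.

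**Figure D4:**
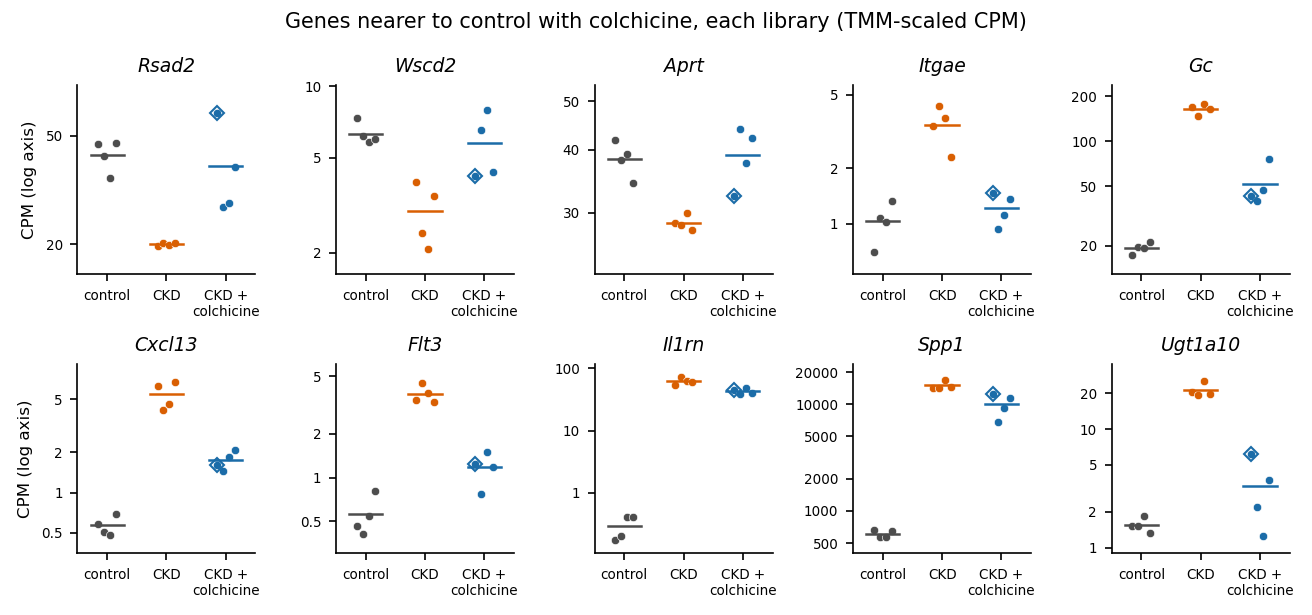
TMM-scaled CPM (log axis) of 10 genes in each control, CKD and colchicine library, with lines at the group means and an open diamond around colchicine replicate 1. The colchicine ranges of Rsad2, Wscd2, Aprt and Itgae overlap the control ranges, while Gc, Cxcl13, Il1rn and Spp1 lie between CKD and control.

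Among genes higher in CKD with a mean count of 50 or more, the largest moves away from control were those of Saa3, Atg9b, Isg15, Ppp2r2c, Mmp3 and Ntm. Mmp3, stromelysin, had 0.232 to 0.933 CPM in control, 12.7 to 20.8 CPM in CKD, and 74.2, 47.2, 25.4 and 37.5 CPM with colchicine (1.47 ± 0.29 against CKD, edgeR adjusted p = 0.00884). Saa3 had 1 count in control and 2.88 to 5.91 CPM with colchicine against 1.21 to 1.46 CPM in CKD (1.77 ± 0.26, edgeR adjusted p = 0.00135). Ntm, a neuronal adhesion protein, had 7.76 to 13.7 CPM against 3.35 to 4.92 CPM in CKD (1.39 ± 0.19, edgeR adjusted p = 7.13e-04). In each of the 3 genes every colchicine library was above every CKD library. Atg9b, an autophagy protein, was at 1.69 and Ppp2r2c, a phosphatase subunit, at 1.53, and the Ppp2r2c call was lost without CKD replicate 2, 3 or 4 or colchicine replicate 2 (1.42 to 1.64).

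Among the lower genes, Serpina1d, a member of the alpha-1-antitrypsin family, had 304, 301, 277 and 308 CPM in control, 27.2, 32, 32.2 and 22.1 CPM in CKD, and 4.56, 4.99, 6.18 and 4.42 CPM with colchicine. It fell against CKD by 2.48 ± 0.13 on the log2 scale (edgeR adjusted p = 1.83e-07) and was 58.6-fold below control. Ceacam2, an adhesion molecule, had 0.118 to 0.242 CPM with colchicine, 1.26 to 2.62 CPM in CKD and 33.9 to 40.7 CPM in control (-3.51 ± 0.29, edgeR adjusted p = 2.61e-05). Cyp2a4, a cytochrome P450, was at -1.76 ± 0.16 against CKD and -7.14 against control. These 3 belong to families of near copies, and their counts are uncertain to that extent. C8a, a complement component (-2.28), Mep1b, the brush border protease meprin beta (-2.06), and Slco4c1, an organic anion transporter (-1.83), were the others. Mep1b had 2.04 CPM in colchicine replicate 1 and 0.4 to 0.645 CPM in the other 3, and Slco4c1 had 1.82 CPM and 0.363 to 0.557 CPM in the same order. Both calls against CKD were lost under the slope on the labelled adenine percentage (-1.21 and -1.04, edgeR adjusted p = 0.0555 and 0.121).

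Genes of cell division were high in both disease groups. All 20 mitosis genes were higher than in control (median 2.32 against 1.91). Of the 18 changed at least 2-fold in CKD, 3 lay further from control, namely Birc5, Cenpf and Plk1, near the 14.4% of all such genes. That count was 1 without colchicine replicate 4 or with RLE scaling and 5 by upper-quartile scaling. Colchicine arrests cells in mitosis by disassembling the spindle, as background. Mki67, the proliferation marker, had 73.4, 36.2, 37.2 and 52.2 CPM with colchicine, 31.4 to 41.6 CPM in CKD and 7.33 to 10.6 CPM in control, and did not pass the test against CKD (0.39 ± 0.20, edgeR adjusted p = 0.184). Birc5, survivin, had 9.25 to 15.3 CPM against 6.37 to 7.53 CPM in CKD (0.75 ± 0.15, edgeR adjusted p = 0.00709). The Plk1 call (0.59) was lost in 11 of the other fits, with values from 0.42 to 0.79. Of 15 p53 target and senescence genes 12 were higher and 2, Ccng1 and Sesn2, lower than in control. Cdkn1a, the cell cycle inhibitor p21, had 95.2, 65.5, 51.4 and 51.5 CPM with colchicine against 44 to 46.5 CPM in CKD and 5.01 to 6.92 CPM in control (0.55 ± 0.16, edgeR adjusted p = 0.0376). That call was lost without control replicate 2 or 3, any 1 CKD library or colchicine replicate 2 (0.53 to 0.56), and without colchicine replicate 1 the move was 0.31 and called (edgeR adjusted p = 0.0144).

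Tubulin genes, the target family of colchicine, mostly stayed at the disease level. Cells are known to lower tubulin messenger RNA when free tubulin rises. Of 17 tubulin and microtubule genes 12 were higher than in control and 3, Tuba4a, Tubb4b and Tubg1, lower (16 and 1 by library totals alone). Of the 10 changed 2-fold in CKD 0 lay toward control and 0 further from it, and 2 lay further from it by upper-quartile scaling or without colchicine replicate 1. Tubb2b had 72.9, 86.8, 85.7 and 77.7 CPM with colchicine, 68.9 to 81.2 CPM in CKD and 10.3 to 11.9 CPM in control (2.91 ± 0.09 against control, edgeR adjusted p = 8.01e-13). Its 90% interval against CKD was -0.04 to 0.23. Tuba1a, at 2.32 against control, had an interval against CKD of -0.08 to 0.25, and Tubb5, at 2.29, one of 0.03 to 0.28. All 3 intervals lie within 1.5-fold.

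A further 515 genes departed from control under colchicine while CKD stayed within 1.5-fold of control, 286 higher and 229 lower, and 8 of them by 2-fold or more. Leaving out colchicine replicate 1 gave 1655, of which 510 were among the 515. Without CKD replicates 1 to 4 there were 219, 267, 149 and 244, without colchicine replicates 2 to 4 178, 224 and 280, and under the slope on the labelled adenine percentage 85. Tppp3, which bundles microtubules, led them. It had 3.91, 3.16, 2.81 and 2.96 CPM in control, 2.88, 3.21, 2.41 and 2.95 CPM in CKD, and 11.9, 16.9, 7.43 and 13.2 CPM with colchicine. Every colchicine library was above all 8 others (1.94 ± 0.22 against control, edgeR adjusted p = 1.06e-06, and 2.11 ± 0.21 against CKD, edgeR adjusted p = 8.45e-05). Without colchicine replicate 1 Tppp3 stayed above CKD (2.12, edgeR adjusted p = 3.77e-05) but no longer met the terms for a departed gene. Odad1, an anchor of the motor arms of cilia, followed with 13.6 to 20.9 CPM against 7.54 to 8.98 CPM in control (1.04). Crip2 (1.01), the connexin Gja5 (1.00) and the transcription factor Foxp1 (0.99) completed the highest 5, and Stmn1, which binds free tubulin, was another of the 286 (0.52). The Gja5 call against CKD was lost under the slope on the labelled adenine percentage (0.57, edgeR adjusted p = 0.112).

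Of the departed genes that were lower, Umod, uromodulin of the thick ascending limb, had 1423, 1213, 1354 and 1550 CPM in control, 1153, 1230, 1263 and 1029 CPM in CKD, and 652, 1032, 674 and 607 CPM with colchicine. Colchicine replicate 2 overlapped the lowest CKD library and the other 3 were below all CKD and control libraries (-0.90 ± 0.15 against control, edgeR adjusted p = 5.33e-05, and -0.66 ± 0.15 against CKD, edgeR adjusted p = 0.0106). The call against CKD was lost under the slope on the labelled adenine percentage (-0.50, edgeR adjusted p = 0.195). Gldc, which breaks down glycine, had 16.6, 11.2, 20.1 and 29.8 CPM against 37.4 to 62.3 CPM in control (-1.36 ± 0.27, edgeR adjusted p = 6.93e-04). Like Tppp3 it left the departed genes without colchicine replicate 1, at -1.20 against CKD (edgeR adjusted p = 0.023). Hpgd, which inactivates prostaglandins, had 7.28 to 9.45 CPM against 15.4 to 19.1 CPM in control and 18 to 22.3 CPM in CKD (-0.99 ± 0.11). Dync1li1, a light intermediate chain of the microtubule motor dynein, was at -0.91 ± 0.14 and Zfp971 at -0.95 ± 0.17. The Zfp971 call against CKD (-0.68) was lost without CKD replicate 1 (-0.65) or colchicine replicate 2 (-0.62). The calls of Zfp971 and Dync1li1 against CKD were lost under the slope on the labelled adenine percentage (-0.64 and -0.31, edgeR adjusted p = 0.168 and 0.247). By library totals alone Umod, Hpgd, Dync1li1 and Zfp971 were at 0.14, 0.05, 0.13 and 0.08 against control.

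**Figure D5:**
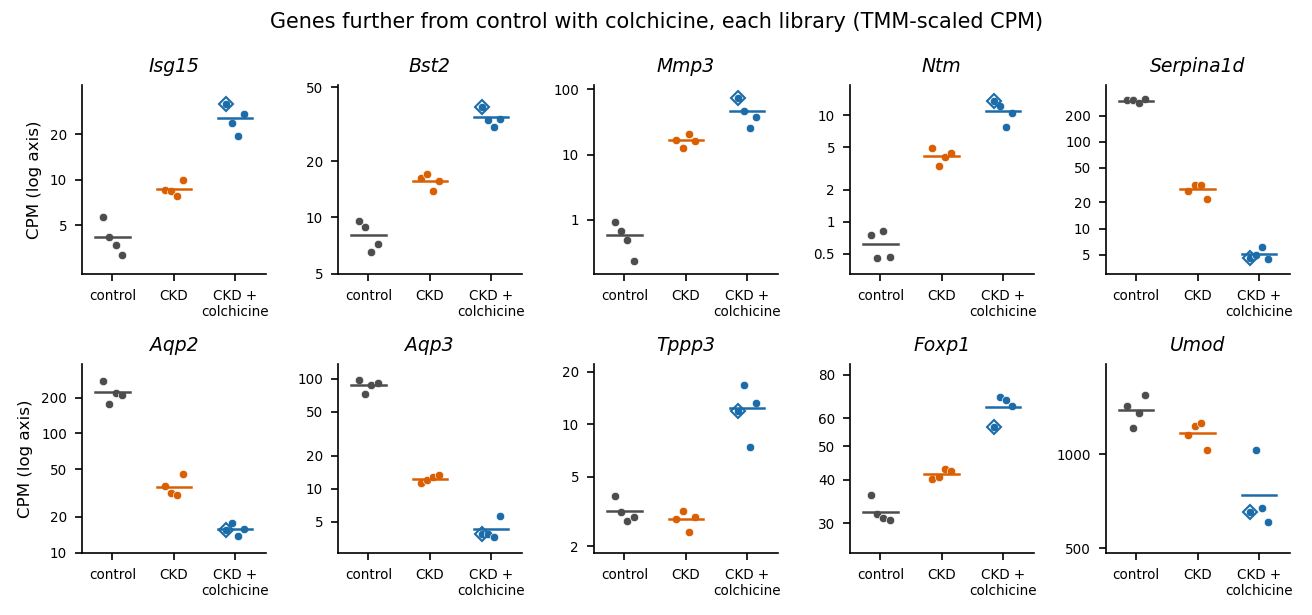
TMM-scaled CPM (log axis) of 10 genes in each control, CKD and colchicine library, with lines at the group means and an open diamond around colchicine replicate 1. The first 7 lie further from control than in CKD, as for Aqp2 at 13.8 to 17.8 CPM. Of these, Bst2 is not among the genes counted as further, which needed a 2-fold change in CKD. Tppp3, Foxp1 and Umod departed from control under colchicine while CKD stayed within 1.5-fold of it.

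Podocyte and endothelial genes stood nearer to control in both disease groups. Of 12 podocyte genes 6 were higher and 2, Col4a3 and Magi2, lower than in control, with a median of 0.20. Nphs1, nephrin, had 15.7, 14.9, 18.8 and 16.3 CPM in control and 10.7, 16.4, 20.2 and 15.5 CPM with colchicine, a difference of -0.06 ± 0.16 with a 90% interval of -0.34 to 0.23. Col4a3, a collagen of the filter's basement membrane, was at -1.03 ± 0.09 against control. By library totals alone Nphs1 was at 0.98 and Col4a3 at 0.01, and 11 of 12 podocyte genes were higher. Of 12 endothelial genes 3 were higher and 5 lower than in control, and 10 and 0 by library totals alone. Kdr, the VEGF receptor, had 25.4 to 34 CPM with colchicine, 24.1 to 27.6 CPM in CKD and 66.7 to 74.6 CPM in control (-1.18 ± 0.09, edgeR adjusted p = 9.27e-09), and was not called by library totals alone (-0.15).

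Stress and sterol pathways gave smaller groups. Of 13 NRF2 targets, the antioxidant genes, 2 were higher and 8 lower than in control, and 5 and 5 by library totals alone. Slc7a11, the cystine importer, lay toward control (-0.63), with 8.5 to 11.1 CPM against 13 to 17.3 CPM in CKD and 0.116 to 0.411 CPM in control, while Gclc, Gclm, Me1 and Nqo1 lay further from it (-0.76, -0.53, -0.61 and -0.90). Those 4 were 1 by library totals alone and 2 under the slope on the labelled adenine percentage. Of 14 genes of cholesterol synthesis 1 was higher and 10 lower than in control, and 5 and 6 by library totals alone, with Hmgcs1 and Sc5d further from control (-0.60 and -0.31). Of 15 genes of endoplasmic reticulum stress 6 were higher and 2 lower, where 37.1% and 33.4% of all genes tested were. The split of the list was 5 and 7 without colchicine replicate 1, and 13 and 1 by library totals alone.

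Markers of other tissue and of handling were set beside these groups. All 5 erythrocyte genes tested were lower than in control, with summed levels of 178 to 526 CPM in control, 33.2 to 97.5 CPM in CKD and 14.5 to 39.9 CPM with colchicine. Of 7 urothelial genes 2 were higher and 1 lower, and of 6 adipocyte genes tested 0 were called, their summed level ranging from 7.48 to 118 CPM within the colchicine group. Of 14 immediate early genes 6 were higher and 1, Dusp1, lower than in control, where 37.1% and 33.4% of all genes tested were. Egr2 was among the 6, at 4.02 ± 0.30. By library totals alone 11 were higher and 0 lower, and the Dusp1 call was lost without any 1 colchicine library, where 5 or 6 were higher. The part of these markers in the results above was not tested.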

How the data were processed

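RNA was sequenced from 12 mouse kidney libraries, 4 per group. The authors' deposited values are estimated counts per gene, made with fastp, STAR and Salmon on GRCm39 per the submitters' processing notes, with versions not given in the sources used here. Whether unique molecular identifiers were used is likewise not given. Values were rounded to whole counts. Genes were filtered with edgeR's filterByExpr (minimum count 10), scaled by TMM and fitted with edgeR 4.0.16's quasi-likelihood test (R 4.3.3) as 3 group means over all 12 libraries, with Benjamini-Hochberg adjustment over all 17841 genes and a threshold of 0.05. Alternatives used DESeq2 1.42.0, limma 3.58.1 (voom), other scalings, filters and margins, a replicate block, a slope on labelled adenine, and each library left out. Fold changes are log2, with the SE from the F statistic. A gene is still different, toward or further only if changed at least 2-fold in CKD, and departed if called against control and CKD in 1 direction with CKD within 1.5-fold of control. Against 0 counts a floor of 3 counts over the group was used, and such genes kept their fitted value in list medians. Floors and binomial intervals cover counting error only, since reads are not independent molecules.

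The members, the 33 lists (504 genes) and the tests were chosen with earlier results of these data known. Named genes were the 8 highest and 8 lowest against control without overlap, up to 6 each way among genes back within 1.5-fold, the 6 each way with the largest moves toward and away from control, the 5 each way that departed, 2 of each list by smallest p, and a fixed panel. These needed a mean count of 50 or more, and predicted genes were left out. Members that make up a count were named with it after their values were seen, and a few list members are not reported here by name. The fit was tested on simulated data with 200 of 17841 genes changed in the colchicine group. It recovered 49.5% of them at 1.5-fold, 72.5% at 2-fold and 90% at 4-fold. Of the unchanged genes 71.5 to 71.7% met the rule for lying within 1.5-fold. With so few genes changed, the simulation does not test the scaling where 70.5% of genes are called.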

Additional observations from a re-analysis of the deposited data

Results flagged for a closer look

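In 25 of 240 groups of 4 libraries tested, over the genes named, 1 library stood apart from the other 3, its gap divided by the group's range exceeding Dixon's 95% critical value. Chance flags about 1 in 20 groups, and libraries shared by all genes make the flags dependent. The library was the highest in 23 of the 25, and in 7 it was colchicine replicate 1.

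With colchicine the highest library was replicate 1 for Trem1 (gap ratio 0.851), Smcp (1.000, 1 count in 1 library), Cyp2d12 (0.935), Mep1b (0.851), Slco4c1 (0.867), Nlrp3 (0.831) and Bmp7 (0.847), replicate 2 for Crip2 (0.837) and Umod (0.841), and replicate 4 for Ass1 (0.840) and Aqp3 (0.875). Replicate 1 was the lowest for Gja5 (0.899).

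In control the highest library was replicate 1 for Lypd2 (0.856), Lcn2 (0.843), Col1a1 (0.899), Cldn10 (0.953), ND4 (0.834) and Krt17 (1.000, 1 count), and replicate 2 for C3 (0.832), Gda (0.925), Clca3b (1.000, 1 count) and Saa3 (1.000, 1 count). It was replicate 4 for Tubb2b (0.956) and Kdr (0.892). Control replicate 3 was the lowest for Cyp2a4 (0.921).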

How the results depend on the processing

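Over the fold changes against control of the 118 genes named, and those against CKD of the 71 called there, 4103 recomputed values kept their direction and side of the threshold, 157 were no longer called, 3 became called and 10 turned. Of the 47 not called against CKD, 19 became so under 1 or more settings, 9 of them without colchicine replicate 1: Arg1, Cp, Egf, Havcr1, Kdr, Nphs1, S100a8, Slc22a30 and Sprr2f. All 10 turned by library totals alone, against control: Rsad2 0.89, Wscd2 0.92, Lars2 0.11, Lypd2 0.0314, Hpgd 0.0476, Zfp971 0.0751, Dync1li1 0.13, Umod 0.14, Nphs1 0.98 and Col4a3 0.0091. By library totals alone 13762 genes were higher and 1953 lower than in control, 9934 CKD-changed genes were still different and 311 had departed. With a fold of 2 or more required, 3770 were higher, 2814 lower and 8 had departed. Genes back within 1.5-fold numbered 2 with DESeq2, 3 with RLE scaling, 3 with upper-quartile scaling, 3 at a mean count of 50 or more, 2 with the replicate block and 2 with the slope on labelled adenine. They numbered 0 at a narrower margin and 123 at one of 2-fold, where 212 and 871 genes had departed. With the slope 95 genes lay toward control, 643 further from it and 85 had departed. The replicate block, for numbers that share no deviation (correlations from -0.279 to 0.189), gave 6320 genes higher, 5846 lower, 225 toward control, 682 further from it and 283 departed. Same-numbered libraries did not all correlate best with each other. Leaving out 1 library at a time gave 1 to 14 genes within 1.5-fold, 135 to 811 toward control, 415 to 1252 further from it, 149 to 1655 departed, 6188 to 6961 higher, 5791 to 6310 lower and 5771 to 5922 still different. The cause of these changes was not tested. Counts at or near 0 in control limit folds to lower bounds.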
